A study of Mus musculus with 10 samples.

Results

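The 5 miRNA hairpins of the miR-200 family, mmu-mir-200a, mmu-mir-200b, mmu-mir-429, mmu-mir-200c and mmu-mir-141, and the hairpin mmu-mir-205 were examined in mouse spermatozoa. The 6 hairpins were chosen by name and not by a measured value, although earlier results of these data were known. They are 6 of the 1136 miRNA hairpins that had reads in at least 1 sample. All 6 passed the filter on low counts.

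The samples were mature sperm of F0 male C57BL/6J mice, collected from the tail of the epididymis and the vas deferens. The HFD-F0 group (n = 5) was fed a high-fat diet with 42% of kcal as fat and the CD-F0 group (n = 5) a control diet with 10%, both starting at 4 weeks of age and lasting 10 weeks. No group carried a mutation or another treatment. Whether 1 sample is 1 mouse is not given in the labels or the methods, so p-values measure only the spread between these samples. Per sample there were 29558751 to 32178088 clean reads, of which 4283714 to 7532696 were assigned to miRNA hairpins. Levels are given as RPM, the reads of a hairpin divided by the clean reads of the sample and multiplied by 1e+06, and since a read is a whole small RNA they were not divided by length. Genome-matched reads made up 73.3% to 74.7% of the clean reads in the HFD-F0 group, and in the CD-F0 group 64.9% in replicate 1, 68.6% in replicate 5 and 69.2% to 75.2% in the other replicates.

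A miRNA is cut from a hairpin and guides Argonaute proteins to messenger RNAs that pair with its seed, which is bases 2 to 8 of the mature strand. The miR-200 family and miR-205 are known from epithelia, where they repress Zeb1 and Zeb2, transcription factors that silence E-cadherin and drive epithelial cells towards a mesenchymal state. The epididymis is a duct lined by epithelium, in which sperm mature and take up small RNA from vesicles that the epithelium secretes. Whether reads of these hairpins came from sperm, from vesicles or from epithelial cells in the sample cannot be told apart in bulk RNA, and neither can fewer cells of a type and less RNA per cell.

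The hairpins lie at 3 places in the genome (GRCm38.p6, the minus strand in each case). On chromosome 4, mmu-mir-200b (chr4:156055681-156055750), mmu-mir-200a (chr4:156054896-156054985) and mmu-mir-429 (chr4:156053905-156053987) follow each other in the direction of transcription, with 695 and 908 bases between them, and the cluster spans 1846 bases. GENCODE M21 places it within the gene Ttll10, where none of the 3 hairpins overlaps a Ttll10 exon, and within the non-coding transcript Gm13648, of which an exon contains mmu-mir-429. On chromosome 6, mmu-mir-200c (chr6:124718322-124718390) and mmu-mir-141 (chr6:124717914-124717985) are separated by 336 bases and lie in the non-coding gene Gm15884, again outside its exons. Part of mmu-mir-141 overlaps an exon of another gene on the same strand, Gm29008. On chromosome 1, mmu-mir-205 (chr1:193507463-193507530) lies in an exon of the lincRNA gene 4631405K08Rik.

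The mature sequences show that the seeds cut across the genomic clusters. They are taken from RefSeq (GRCm38.p6), in which all 6 hairpins were found, with the seed in capitals. The strand that usually acts as the guide is shown, the 3′ arm for the miR-200 family and the 5′ arm for miR-205, although the deposited values add up all reads of a hairpin.
mmu-miR-200b-3p (chromosome 4): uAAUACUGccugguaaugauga
mmu-miR-200c-3p (chromosome 6): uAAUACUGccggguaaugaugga
mmu-miR-429-3p (chromosome 4): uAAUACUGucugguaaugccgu
mmu-miR-200a-3p (chromosome 4): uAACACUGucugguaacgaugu
mmu-miR-141-3p (chromosome 6): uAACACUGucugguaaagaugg
mmu-miR-205-5p (chromosome 1): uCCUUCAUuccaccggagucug
miR-200b, miR-200c and miR-429 share 1 seed and miR-200a and miR-141 the other, and the seeds differ at 1 position, C4U from miR-200a to miR-200b, with positions counted from 1 at the 5′ end. Across the clusters the mature strands can be closer than within them. From miR-200b to miR-200c the changes are U11G and A22G, so the first 21 bases hold 1 mismatch. From miR-200a to miR-141 the changes are C17A and U22G, which also leaves 1 mismatch in the first 21 bases. The authors allowed 1 mismatch when they aligned reads. From miR-200b to miR-429 the changes are C9U, A19C, U20C and A22U, and here only the first 18 bases are limited to 1 mismatch.

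The 6 hairpins were detected in every sample, and mmu-mir-429 was the most abundant. Over the 10 samples mmu-mir-429 was at 2382 ± 452 RPM (SD, n = 10) and ranked 17 among the miRNA hairpins, followed by mmu-mir-200a at 1618 ± 488 RPM (SD, n = 10) with rank 31. mmu-mir-200c was at 798 ± 260.1 RPM (SD, n = 10), mmu-mir-200b at 750.3 ± 238 RPM (SD, n = 10) and mmu-mir-141 at 548 ± 208 RPM (SD, n = 10), with ranks 58, 61 and 68. mmu-mir-205 was the least abundant, at 108 ± 36.4 RPM (SD, n = 10) and rank 129. This order held in each of the 10 samples for all 5 pairs of neighbours, with p = 0.00195 for each pair in a sign-flip permutation test of the log2 ratio (two-sided, the smallest p that 10 samples can give, adjusted p = 0.00195 over the 5 pairs). The order was taken from the means of these same samples, so these p-values are no independent support for it. mmu-mir-200c and mmu-mir-200b may also share reads, as described further on. The steps were unequal: mmu-mir-429 was 1.51 times as high as mmu-mir-200a on average, mmu-mir-200c only 1.06 times as high as mmu-mir-200b, and mmu-mir-141 4.96 times as high as mmu-mir-205. Together the 6 hairpins took 3.28% ± 0.726 of the miRNA reads in CD-F0 sperm and 3.69% ± 0.465 in HFD-F0 sperm (mean and SD of 5 samples each). Counting error was small, since the half-width of the 95% Wilson interval was at most 4.41% of a level, for mmu-mir-205 in CD-F0 replicate 3. Such intervals cover counting error only.

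None of the 6 hairpins differed between the diets past the thresholds of the study, an unadjusted p of at most 0.05 together with an absolute log2 fold change of at least 1, when edgeR's quasi-likelihood test was run on all 814 features. Of all features 3.69% passed these thresholds, and of the 529 miRNA hairpins tested 2.84%. With the unadjusted threshold of 0.05 alone, both edgeR and DESeq2 called 0 of the 6, while edgeR called 10.2% of all features and 9.64% of miRNA hairpins. After adjustment over all features 0 of the 6 and 0.123% of all features were under 0.05 in edgeR. All 6 log2 fold changes were positive, with a median of 0.29, whereas 49% of all features and 44.6% of miRNA hairpins were on that side, with medians of -0.0055 and -0.055. The hairpins are not independent measurements, since some may share reads, as described further on. Those with the larger values were mmu-mir-200b, mmu-mir-205 and mmu-mir-200c.

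**Figure D1:**
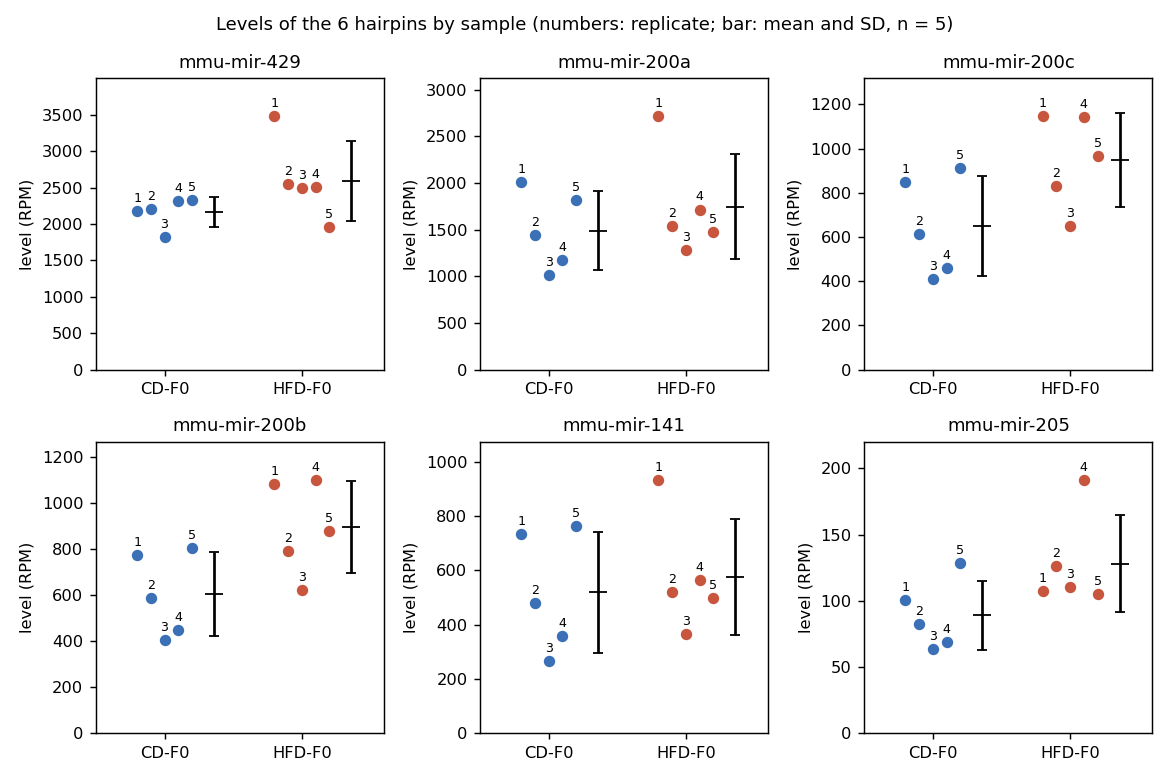
Level in RPM (vertical axis) of each of the 6 hairpins in the 5 CD-F0 and 5 HFD-F0 samples, with the replicate number above each point and the mean and SD beside it. CD-F0 replicate 3 was the lowest sample in all 6 panels, and the groups overlapped in each.

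miR-200b, miR-200c and miR-429 carry the same seed. In the CD-F0 group mmu-mir-200b was at 777, 587, 403, 449 and 807 RPM in replicates 1 to 5, and in the HFD-F0 group at 1083, 793, 623, 1102 and 879.9 RPM. 3 HFD-F0 samples were above every CD-F0 sample and 3 CD-F0 samples below every HFD-F0 sample. As a percentage of miRNA reads the groups overlapped more. HFD-F0 replicate 1 (0.460%) was then below CD-F0 replicate 5 (0.477%), and CD-F0 replicate 2 (0.348%) above HFD-F0 replicate 3 (0.344%). HFD-F0 over CD-F0 gave a log2 fold change of 0.46 ± 0.24 (SE), and p was 0.514 in edgeR after Benjamini-Hochberg adjustment over all features. mmu-mir-200c, its counterpart on chromosome 6, was at 849.8, 613, 410.1, 460.0 and 913 RPM in the CD-F0 replicates and at 1146, 831, 648, 1145 and 968 RPM in the HFD-F0 replicates. The overlap was the same as for mmu-mir-200b, and the log2 fold change was 0.43 ± 0.26 (SE), with an edgeR p of 0.574 after adjustment. mmu-mir-429, the third hairpin with this seed, was at 2173, 2207, 1818, 2309.8 and 2329 RPM in the CD-F0 replicates and at 3478, 2545, 2490.5, 2509 and 1959.8 RPM in the HFD-F0 replicates. Here 4 HFD-F0 samples were above every CD-F0 sample and HFD-F0 replicate 5 was below all CD-F0 samples but replicate 3. The log2 fold change was 0.14 ± 0.14 (SE), with an edgeR p of 0.803 after adjustment. The coefficient of variation of mmu-mir-429 within the CD-F0 group was 9.52%, against a median of 23.8% over the 290 miRNA hairpins with a mean of at least 10 RPM and reads in all samples, and in the HFD-F0 group it was 21.1% against 25.3%.

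miR-200a and miR-141 carry the other seed of the family. mmu-mir-200a was at 2009, 1443, 1011, 1172 and 1817 RPM in the CD-F0 replicates and at 2714, 1535, 1283, 1716 and 1476 RPM in the HFD-F0 replicates. Only HFD-F0 replicate 1 was above every CD-F0 sample, and the other 4 HFD-F0 samples lay between the CD-F0 samples. HFD-F0 over CD-F0 came to 0.093 ± 0.23 (SE) on the log2 scale, with an edgeR p of 0.938 after adjustment. mmu-mir-141 was at 734, 479, 264, 357 and 762 RPM in the CD-F0 replicates and at 934, 519.9, 366, 564 and 498 RPM in the HFD-F0 replicates, with the same overlap as mmu-mir-200a. HFD-F0 over CD-F0 came to 0.011 ± 0.31 (SE) on the log2 scale, with an edgeR p of 0.991 after adjustment. The sign of both hairpins turned with single libraries: without HFD-F0 replicate 1 the log2 fold changes were -0.079 for mmu-mir-200a and -0.19 for mmu-mir-141, and without CD-F0 replicate 3 they were -0.032 and -0.17. Without HFD-F0 replicate 4, CD-F0 replicate 2 and CD-F0 replicate 4 the value for mmu-mir-141 was also negative, at -0.0012, -0.058 and -0.093.

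miR-205 has a seed of its own and is known from stratified epithelia. mmu-mir-205 was at 101, 82.5, 63.7, 68.9 and 128 RPM in the CD-F0 replicates and at 107, 126, 110.3, 191 and 105 RPM in the HFD-F0 replicates. HFD-F0 replicate 4 stood above all other samples, and 4 CD-F0 samples were below every HFD-F0 sample. As a percentage of miRNA reads, HFD-F0 replicate 1 (0.0456%) was below all CD-F0 samples but replicates 3 (0.0349%) and 4 (0.0448%). HFD-F0 over CD-F0 came to 0.44 ± 0.26 (SE) on the log2 scale, with an edgeR p of 0.584 after adjustment, and without HFD-F0 replicate 4 it was 0.21.

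Scaling moved the p-values of mmu-mir-200b and mmu-mir-200c across 0.05. With clean reads as library size edgeR gave an unadjusted p of 0.0288 for mmu-mir-200b and 0.0455 for mmu-mir-200c, with log2 fold changes of 0.57 and 0.55, while the adjusted p-values in edgeR were 0.371 and 0.431. Of the features past the unadjusted threshold in that fit, HFD-F0 sperm had more of 72 and less of 20, against 50 and 33 with TMM normalization. The unadjusted threshold was also passed by mmu-mir-200b, mmu-mir-200c and mmu-mir-205 without CD-F0 replicate 5, by mmu-mir-200b and mmu-mir-200c without CD-F0 replicate 1, and by mmu-mir-200b without HFD-F0 replicate 3. In these fits 110 of 827, 101 of 826 and 76 of 831 features passed it, in the same order. The edgeR p-values of the hairpins named were 0.332 or more after adjustment. In the CD-F0 group, replicates 1 and 5 were the highest samples for each hairpin but mmu-mir-429, and they were also the samples with the smallest share of genome-matched reads in that group. Pearson's r of log2(RPM) with this share over the 10 samples ranged from -0.35 for mmu-mir-141 to 0.16 for mmu-mir-429. It was -0.013 for mmu-mir-200b and -0.064 for mmu-mir-200c. Spearman's rho ranged from -0.41 for mmu-mir-200a to 0.055 for mmu-mir-429. With the share of clean reads assigned to miRNA hairpins, Pearson's r was higher. It ranged from 0.21 for mmu-mir-205 to 0.58 for mmu-mir-200a and 0.79 for mmu-mir-429, and rho from 0.20 for mmu-mir-200c to 0.58 for mmu-mir-429. That share includes the reads of the 6 hairpins. It was 23.5% in HFD-F0 replicate 1 and 14.5% to 19.0% in the other samples. These values are a description, and the part of either share in the levels was not tested.

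**Figure D2:**
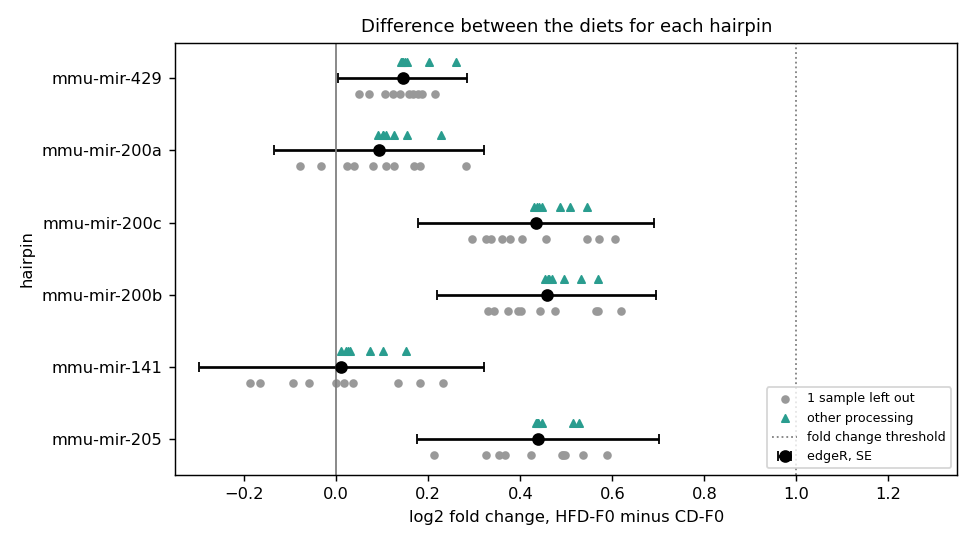
Log2 fold change of HFD-F0 over CD-F0 (horizontal axis) for each hairpin, with the edgeR value and its standard error as a black point and bar, the values with 1 sample left out in grey and those with other processing as triangles. No value reached the threshold of 1 (dotted line), and values on both sides of 0 were found for mmu-mir-200a and mmu-mir-141.

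In the deposited counts, 2 pairs of hairpins that share a seed across the clusters lay close together or moved in parallel. mmu-mir-200c exceeded mmu-mir-200b in each of the 10 samples, but only by 1.82% to 13.2%, although mmu-mir-200b ranged over 2.74-fold between samples. mmu-mir-200a was 2.38 to 3.83 times as high as mmu-mir-141. In the third such pair, mmu-mir-429 was 2.02 to 5.02 times as high as mmu-mir-200c.

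Many of the deposited read numbers were not whole. mmu-mir-205 had whole values in all 10 samples (to within 0.015 reads), mmu-mir-200c in 3, mmu-mir-200a and mmu-mir-141 in 2 each, mmu-mir-200b in 1 and mmu-mir-429 in 0. The difference between mmu-mir-200a and mmu-mir-141 was whole in 9 of 10 samples, that between mmu-mir-200a and mmu-mir-429 in 5, that between mmu-mir-429 and mmu-mir-141 in 4, that between mmu-mir-200b and mmu-mir-200c in 3, and that between mmu-mir-429 and mmu-mir-200c in 0. The parallel fractions were thus seen mainly for mmu-mir-200a and mmu-mir-141. With 1 mismatch allowed, reads of up to 21 bases of miR-200b can also be aligned to miR-200c, those of miR-200a to miR-141, and those of up to 18 bases of miR-200b to miR-429. Whether and how many reads were divided between hairpins is not given by the files and was not tested. The level of each of the 5 miR-200 hairpins is therefore uncertain, mmu-mir-429 included, and they cannot be taken as independent measurements.

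**Figure D3:**
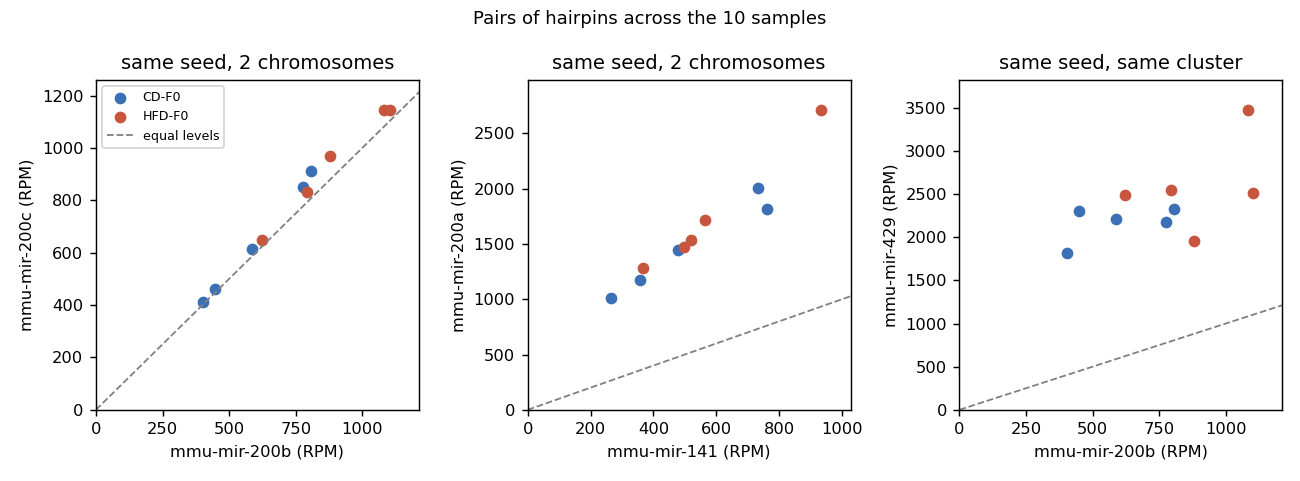
Levels in RPM of 3 pairs of hairpins in the 10 samples, with the dashed line marking equal levels. mmu-mir-200b and mmu-mir-200c lay just above the line in all samples, mmu-mir-200a kept above mmu-mir-141 and followed it, and mmu-mir-429 varied less regularly with mmu-mir-200b.

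Across samples the hairpins varied together, and r was highest in the 2 pairs with 1 mismatch in the first 21 bases. Pearson's r of log2(RPM) between mmu-mir-200b and mmu-mir-200c was 0.997 (Spearman's rho 0.976), with p = 1e-05 for both in a permutation test with 100000 resamples, the smallest p it can give, and an adjusted p of 7.5e-05 over the 15 pairs for r. For mmu-mir-200a and mmu-mir-141 r was 0.971 (rho 0.988, permutation p = 1e-05 for r and 2e-05 for rho, adjusted p = 7.5e-05 for r and 0.00015 for rho). Without the 2 samples farthest from the median, r was 0.990 and 0.967 in these pairs. The median is that of 1 hairpin of a pair. It is the one that comes first in the order mmu-mir-200a, mmu-mir-200b, mmu-mir-429, mmu-mir-200c, mmu-mir-141, mmu-mir-205. Within the chromosome 4 cluster, mmu-mir-200a and mmu-mir-200b had r = 0.834 (rho 0.770, permutation p = 0.00265 and 0.0121, adjusted 0.00568 and 0.0260), and r was 0.709 without the 2 farthest samples. Within the chromosome 6 cluster, mmu-mir-200c and mmu-mir-141 had r = 0.844 (rho 0.855, permutation p = 0.00234 and 0.00285, adjusted 0.00568 and 0.0130), and r was 0.656 without the 2 farthest samples. Such values cannot be read as covariation of a cluster alone, since reads may be shared across the clusters. mmu-mir-200a and mmu-mir-200c, from different clusters and with different seeds, had r = 0.841 (rho 0.842, permutation p = 0.00192 and 0.00347, adjusted 0.00568 and 0.0130), and r was 0.748 without the 2 farthest samples.

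The r values of mmu-mir-429 with the rest of the family were lower, a difference that was not tested. Its r with mmu-mir-200b, of the same cluster and with the same seed, was 0.585, and 0.461 without the 2 farthest samples. Over all samples rho was 0.552, with permutation p = 0.0725 for r and 0.105 for rho (adjusted p = 0.0989 and 0.131). With mmu-mir-200a, its neighbour on chromosome 4, r was 0.718 (rho 0.491, permutation p = 0.0237 and 0.155, adjusted p = 0.0394 and 0.155), but r was -0.091 without the 2 samples farthest from the median, so this relation rests on those samples. With the chromosome 6 hairpins r was 0.552 for mmu-mir-200c and 0.619 for mmu-mir-141, with permutation p-values of 0.0960 and 0.0533 (rho 0.503 and 0.527, permutation p = 0.145 and 0.122, adjusted p for r 0.111 and 0.0800), and both were near 0 or negative without the 2 farthest samples, at -0.025 and -0.15. The samples left out were set by mmu-mir-200b in its pair with mmu-mir-429. In the other pairs they were set by mmu-mir-200a or mmu-mir-429. They were therefore not the same samples, and the r values without them cannot be compared between these pairs. For mmu-mir-205, r was 0.849 with mmu-mir-200b (rho 0.782, permutation p = 0.00182 and 0.0108, adjusted 0.00568 and 0.0260) and 0.84 with mmu-mir-200c, which are not independent of each other (rho 0.685, permutation p = 0.00177 and 0.0344, adjusted 0.00568 and 0.0574). Without the 2 farthest samples r was 0.640 and 0.610. Its r was 0.530 with mmu-mir-200a, 0.558 with mmu-mir-141 and 0.431 with mmu-mir-429, with permutation p-values of 0.114, 0.0917 and 0.204 (rho 0.564, 0.624 and 0.697, permutation p = 0.0955, 0.0604 and 0.0302), and the adjusted p was 0.111 or more for r and 0.0567 or more for rho. Without the 2 farthest samples these r values were 0.545, 0.457 and 0.458 in the same order. Adjusted over the 15 pairs, 9 pairs had a permutation p under 0.05 for r and 7 for rho.

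The 4 pairs within a cluster had a median r of 0.776 and the 6 pairs across the clusters a median of 0.832. With each group centred on its mean, which removes the diet, these medians were 0.787 and 0.901. The difference between the medians was not tested, because reads may be shared across the clusters. As a background, the median r over all 41905 pairs of the 290 miRNA hairpins with a mean of at least 10 RPM and reads in all samples was 0.225, and 1.28% of the pairs were above 0.9. All values of a sample share its clean reads as the denominator.

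**Figure D4:**
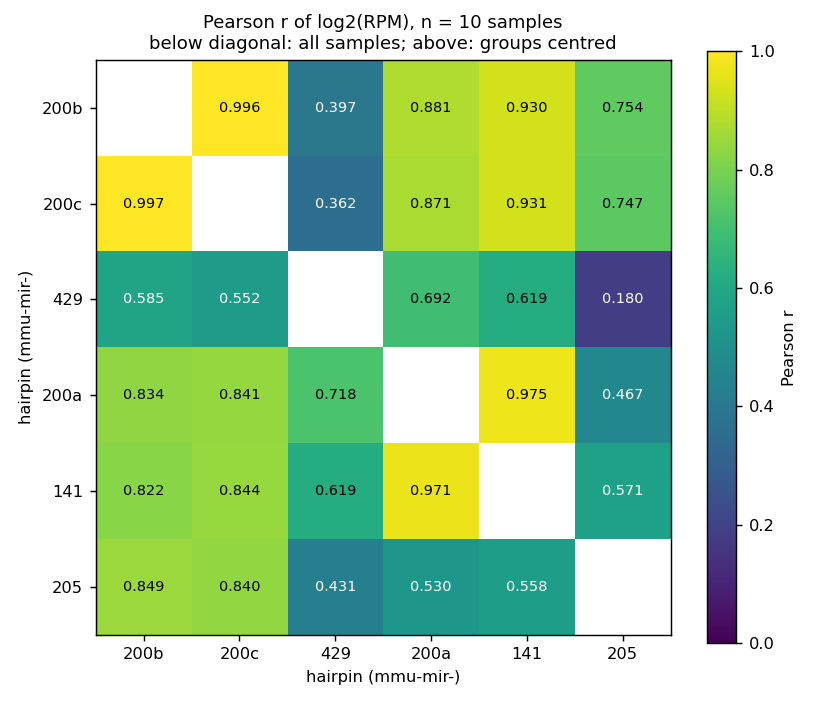
Pearson's r of log2(RPM) over the 10 samples for each pair of hairpins, below the diagonal as measured and above it with each group centred on its mean, with colour from 0 to 1. The pairs with 1 mismatch in the first 21 bases, mmu-mir-200b with mmu-mir-200c and mmu-mir-200a with mmu-mir-141, had r of 0.997 and 0.971, and the row and column of mmu-mir-429 held the lower values of the family.

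A difference between the read numbers of 2 hairpins leaves out any reads that were divided equally between them. Reads divided unequally, or between 1 of them and another hairpin, can remain in the difference. For mmu-mir-200b and mmu-mir-200c the difference was whole in only 3 of 10 samples. This measure was added after the data were seen. The farthest samples are here those farthest from the median of the difference. The reads of mmu-mir-200c beyond those of mmu-mir-200b were at 73.1, 26.2, 7.35, 11.3 and 106 RPM in the CD-F0 replicates and at 62.9, 38.1, 25.01, 42.7 and 88.4 RPM in the HFD-F0 replicates, a range of 14.5-fold that exceeds that of any of the 6 hairpins. The CD-F0 samples lay on both sides of all HFD-F0 samples (44.9 ± 43.2 RPM against 51.4 ± 24.8 RPM, SD, n = 5 each, two-sided exact permutation p = 0.770). This excess was 1.79% to 11.7% of the mmu-mir-200c reads. It came to only 228 reads in CD-F0 replicate 3 and 356 in CD-F0 replicate 4, and its counting error was not computed. Its r was 0.880 with mmu-mir-200c and 0.839 with mmu-mir-200b, of which it is the difference (rho 0.794 and 0.745, permutation p = 0.00099 and 0.00307 for r, 0.00902 and 0.0168 for rho, adjusted p for r 0.00396 and 0.00542), and 0.622 and 0.508 without the 2 farthest samples. With mmu-mir-141, its neighbour on chromosome 6, r was 0.860 (rho 0.830, permutation p = 0.00159 and 0.00484, adjusted p = 0.00477 and 0.0145 over 12 relations), and r was 0.686 without the 2 farthest samples. With mmu-mir-200a r was 0.777 (rho 0.806, permutation p = 0.00794 and 0.00727, adjusted 0.0119 and 0.0145) and 0.519 without the 2 farthest samples, and with mmu-mir-429 it was 0.312 (rho 0.127, permutation p = 0.385 and 0.733, adjusted 0.385 and 0.733). With mmu-mir-205 r was 0.654 (rho 0.539, permutation p = 0.0398 and 0.114, adjusted 0.0478 and 0.137) and 0.107 without the 2 farthest samples, so that relation rests on those samples. The reads of mmu-mir-200a beyond those of mmu-mir-141 made up 58.1% to 73.9% of the mmu-mir-200a reads. They were at 971 ± 209 RPM in the CD-F0 group and 1168 ± 353 RPM in the HFD-F0 group (SD, n = 5 each, exact permutation p = 0.349, two-sided), and HFD-F0 replicate 1 was the highest sample with 1780.0 RPM. Their r was 0.979 with mmu-mir-200a and 0.904 with mmu-mir-141, of which they are the difference (rho 0.988 and 0.964, permutation p = 1e-05 and 0.00025 for r), 0.806 with mmu-mir-200c (rho 0.867, permutation p = 0.00316 and 0.00229), 0.813 with mmu-mir-200b (rho 0.806, permutation p = 0.00267 and 0.00668) and 0.487 with mmu-mir-205 (rho 0.576, permutation p = 0.153 and 0.0885). Adjusted over the 12 relations, p for r was 0.00012, 0.0015, 0.00542, 0.00542 and 0.167. Without the 2 farthest samples r was 0.955, 0.848, 0.756, 0.742 and 0.591 in the same order. With mmu-mir-429 r was 0.771 (rho 0.515, permutation p = 0.0162 and 0.134, adjusted 0.0216 and 0.146), and -0.028 without the 2 farthest samples.

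**Figure D5:**
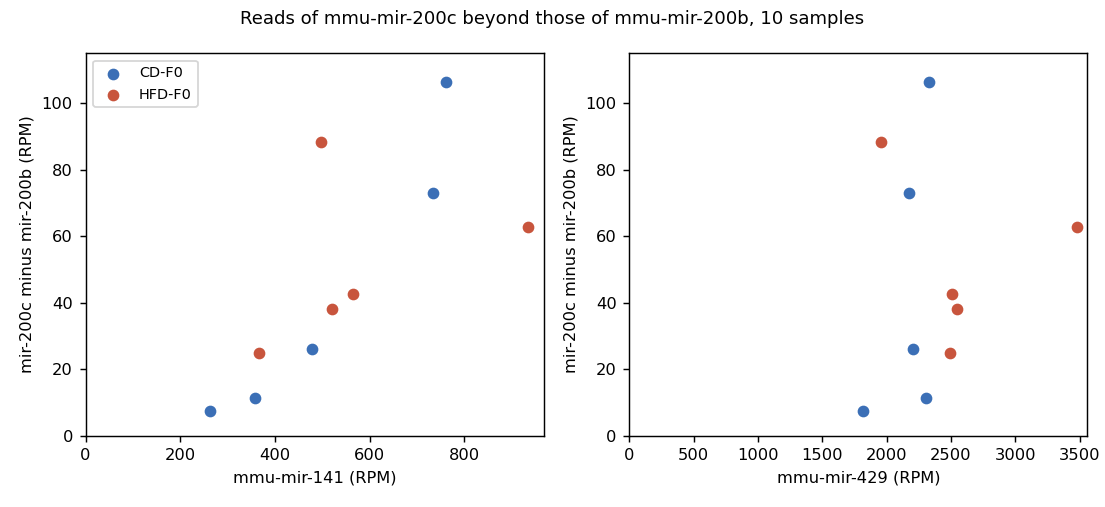
Reads of mmu-mir-200c beyond those of mmu-mir-200b (vertical axis, RPM) against the level of mmu-mir-141 (left) and mmu-mir-429 (right) in the 10 samples. The excess was low where mmu-mir-141 was low, with r = 0.860, while r with mmu-mir-429 was 0.312.

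Whether the 2 clusters, or the 2 seed groups, differed in their response to the diet was tested with 1 ratio per sample, which does not depend on depth. The reads of the chromosome 4 cluster were 3.13, 3.88, 4.80, 4.81 and 2.96 times those of the chromosome 6 cluster in the CD-F0 replicates and 3.50, 3.61, 4.34, 3.12 and 2.94 times in the HFD-F0 replicates. The groups overlapped nearly over their whole range. The log2 ratio was lower by 0.14 in the HFD-F0 group, at 1.79 against 1.94 (two-sided exact permutation p = 0.429, where the design allows no p below 0.00794). The reads of mmu-mir-200b, mmu-mir-200c and mmu-mir-429 were 1.39, 1.77, 2.06, 2.10 and 1.57 times those of mmu-mir-200a and mmu-mir-141 in the CD-F0 replicates and 1.56, 2.03, 2.28, 2.09 and 1.93 times in the HFD-F0 replicates. Here the log2 ratio was higher by 0.16 in the HFD-F0 group, at 0.97 against 0.81 (p = 0.310 in the same exact permutation test). Replicates 1 and 5 of the CD-F0 group had the lowest values of that group in both ratios. In neither ratio did the difference between the diets exceed the spread between samples. The cluster ratio includes reads that may be shared across the clusters.

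Hairpins outside the family that varied most like the sum of the 6 over the 10 samples were mmu-mir-30a, mmu-mir-101a, mmu-mir-222, mmu-mir-31 and mmu-mir-30d, of 284 hairpins compared. Pearson's r of log2(RPM) with the sum was 0.932, 0.927, 0.918, 0.918 and 0.916, given as a description without a test. Of the 6 hairpins, which are part of the sum, only mmu-mir-200a was above mmu-mir-30a, with r = 0.961. The r of mmu-mir-141 was 0.927, of mmu-mir-200b 0.918, of mmu-mir-200c 0.913, of mmu-mir-429 0.805 and of mmu-mir-205 0.692. mmu-mir-30a and mmu-mir-30d were at 832 and 596 RPM on average, mmu-mir-222 at 623 RPM, mmu-mir-31, itself known from epithelia, at 48.4 RPM and mmu-mir-101a at 12.2 RPM. With each group centred on its mean, mmu-mir-101a ranked 2, and mmu-mir-30a, mmu-mir-222, mmu-mir-31 and mmu-mir-30d ranked 6 to 10. mmu-mir-31 belongs to a list of 13 other hairpins known from epithelia. The summed level of that list had a Pearson's r of only 0.14 with the sum of the 6. For the lists of smooth muscle and stroma, blood and immune cells, and male germ cells r was 0.38, 0.14 and -0.063.

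Other miRNAs known from epithelia did not share the positive sign of the 6 hairpins as a list. Of 13 such hairpins tested, 4 were on the positive side, and the median log2 fold change was -0.22. The list holds more than 1 hairpin of some miRNAs, with near-equal log2 fold changes. The 13 are therefore not independent measurements, and neither the count nor the median was tested. With the unadjusted threshold of 0.05 in edgeR, 1 was lower in HFD-F0 sperm and 0 were higher, where 6.14% of all features and 4.91% of miRNA hairpins were higher and 4.05% and 4.73% lower. The 1 was mmu-mir-192, a miRNA of intestinal and kidney epithelium, at 227 ± 24.1 RPM in CD-F0 sperm and 179.5 ± 47.9 RPM in HFD-F0 sperm (mean and SD of 5 samples each). Its log2 fold change was -0.46 ± 0.17 (SE), with an edgeR p of 0.331 after adjustment. The most abundant of the list, mmu-mir-196b, averaged 2155 ± 349.5 RPM and 1979 ± 448 RPM in these groups. The summed level of the list was 6024 to 7859 RPM in the CD-F0 samples and 4764 to 8559 RPM in the HFD-F0 samples.

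Markers of other cell types were present in all libraries, and none of the hairpins found was at 0 in any sample. The 10 hairpins of smooth muscle and stroma summed to 28205 to 38529 RPM in the CD-F0 group and 20896 to 45295 RPM in the HFD-F0 group, mostly from mmu-mir-143 with 25077 ± 3255 RPM and 27437 ± 7689.8 RPM (mean and SD of 5 samples each, CD-F0 first, as in the rest of the paragraph). At the unadjusted threshold 1 was higher in the HFD-F0 group, mmu-mir-145a, a smooth muscle miRNA, and 0 were lower. It was at 578 ± 199 RPM and 1302 ± 779.9 RPM, and its log2 fold change of 1.09 ± 0.38 (SE) also passed the fold threshold, with an edgeR p of 0.293 after adjustment. The 7 hairpins of blood and immune cells tested summed to 3686 to 5534 RPM and 3249 to 6033 RPM, with mmu-mir-146a as the most abundant, averaging 2565 ± 482 RPM and 2648 ± 625 RPM. Of these, 1 was higher at the unadjusted threshold, the neutrophil miRNA mmu-mir-223, and 0 were lower. It was at 362 ± 13.7 RPM and 528 ± 57.8 RPM, with a log2 fold change of 0.44 ± 0.13 (SE) and an edgeR p of 0.225 after adjustment. The 5 hairpins of male germ cells summed to 10478 to 12648 RPM and 7275 to 15064 RPM, led by mmu-mir-449a with 7107 ± 1589 RPM and 5606 ± 2161 RPM, and 0 passed the unadjusted threshold in either direction. The sum of the 6 hairpins was 3969 to 6756 RPM in the CD-F0 group and 5520.3 to 9463 RPM in the HFD-F0 group. The part of these cell types in the levels of the 6 hairpins was not tested.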

How the data were processed

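Small RNA of 18–30 nt was sequenced from 10 sperm samples, 5 of HFD-F0 and 5 of CD-F0 mice, with adapters that carry molecular identifiers. Per the methods and the submitters' processing notes, the authors aligned clean reads with SPORTS and Bowtie, 1 mismatch allowed, to mm10 and small RNA sets, and deposited estimated counts for each RNA class and hairpin without normalization. Versions and any collapse of identifiers are not given in the sources used here.

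Genome-matched and unmatched reads were added. No unmatched reads were listed for the 6 hairpins. From the files, 1470 features that do not overlap were formed and rounded to whole numbers. edgeR 4.0.16 (R 4.3.3) was used with filterByExpr, TMM and the quasi-likelihood test without covariates, with Benjamini-Hochberg adjustment over the 814 features tested. The standard error was taken as the log2 fold change divided by the square root of F. Ratios were tested exactly over all 252 assignments of samples, and correlations with 100000 permutations (Python 3.11.15, scipy 1.17.1). The fit was tested on simulated data. No pair of libraries agreed within sampling noise (chi-square per degree of freedom of 508 or more over 45 pairs).

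The members and lists were chosen with earlier results of these data known. Named were the 6 hairpins, the 5 most alike hairpins, and from each marker list the most abundant hairpin and those past the unadjusted threshold of 0.05. The fit was repeated with DESeq2 1.42.0, with library sizes set to clean reads, without the filter, with a minimum of 10 counts per sample, on miRNA hairpins alone, on genome-matched reads alone, with each sample left out and with the replicate number as a block. Ratios and correlations were repeated on other scales and denominators. Whether the replicate numbers pair the samples is not given in the labels. Correlations of the deviations of same-numbered samples ranged from -0.19 to 0.34, which does not settle it.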

Additional observations from a re-analysis of the deposited data

Results flagged for a closer look

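2 values stood apart from the rest of their group, out of 20 groups of 5 samples examined, where chance gives about 1 in 20. mmu-mir-205 was at 191 RPM in HFD-F0 replicate 4, while the other HFD-F0 samples were at 105 to 126 RPM. The reads of mmu-mir-200a beyond those of mmu-mir-141 were at 1780.0 RPM in HFD-F0 replicate 1, while the other HFD-F0 samples were at 917 to 1152 RPM. In both cases the gap to the next sample was above the Dixon critical value of 0.71 of the range, at 0.751 and 0.728.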

How the results depend on the processing

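Under each of the 7 other settings and with each of the 10 samples left out, 0 of the 6 hairpins passed the study's thresholds. With 1 sample left out, the log2 fold change ranged from -0.079 to 0.28 for mmu-mir-200a and from -0.19 to 0.23 for mmu-mir-141, with the sign turned in 2 and 5 such fits, and stayed positive for mmu-mir-200b (0.33 to 0.62), mmu-mir-200c (0.29 to 0.60), mmu-mir-205 (0.21 to 0.59) and mmu-mir-429 (0.050 to 0.21). The other settings kept all 6 positive. With the replicate number as a block the unadjusted p of edgeR's quasi-likelihood test was 0.0335 for mmu-mir-200b and 0.0398 for mmu-mir-200c. After adjustment these were 0.416 and 0.444, and 82 of 814 features passed the unadjusted threshold in that fit. 4 of the 10 samples correlated best with their own number. In an edgeR fit on miRNA hairpins only, p was 0.0420 for mmu-mir-200b, or 0.384 after adjustment, and 63 of 530 features passed the unadjusted threshold. With 1 sample left out the cluster difference in log2 ranged from -0.24 (without CD-F0 replicate 5) to -0.063 (without CD-F0 replicate 4) and the seed group difference from 0.074 (without CD-F0 replicate 1) to 0.24 (without HFD-F0 replicate 1). With the mean of log2 values they were -0.039 and 0.26, and for mmu-mir-429 against the excess of mmu-mir-200c, added after the data were seen, the cluster difference was -0.51. The signs held under each alternative, with exact permutation p-values from 0.222 to 0.802 and from 0.0794 to 0.619, and sign flips of 5 numbered pairs cannot give a p under 0.0625. The median r ranged from 0.627 to 0.836 within and from 0.746 to 0.901 across clusters. Over all features, 30 passed the study's thresholds, 93 with no filter, 19 with at least 10 counts in every sample and 50 without CD-F0 replicate 5. The unadjusted threshold alone was passed by 83, and by 151 with no filter. Adjusted, 1 passed, and 13 with DESeq2 and 5 with clean reads as library size. The causes were not tested.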
